A study of Homo sapiens with 18 samples.

Results

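Mitochondrially encoded genes contribute readthrough reads to a table that was made to follow RNA polymerase II past the ends of nuclear genes. The 8 genes described here are MT-ND1, MT-ND2, MT-ND4 and MT-ND5, which encode subunits of respiratory complex I, MT-CO1, MT-CO2 and MT-CO3 of complex IV (cytochrome c oxidase), and MT-CYB, the cytochrome b of complex III. They were taken by name after transcript identifiers were matched to GENCODE, and all 8 were among the 13051 transcripts of the table. Of the 13 protein-coding genes of the mitochondrial genome, the table holds 11, the other 3 being MT-ATP6, MT-ND3 and MT-ND6.

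The cells were K562, an established line of chronic myeloid leukemia whose growth is driven by the Bcr-Abl1 kinase. Nascent RNA from the chromatin fraction was depleted of polyadenylated and ribosomal RNA and sequenced as PacBio long reads in 18 libraries, 3 biological replicates for each of 6 groups. CTRL and CTRLim were untreated, KCl 45min received 110 mM KCl as a hyperosmotic shock for 45 min, JTE 1h received 5 µM JTE-607, an inhibitor of the CPSF73 endonuclease that cuts nuclear pre-mRNA, for 1 h, and IM 1h and IM 18h received 1 µM imatinib, an inhibitor of the Bcr-Abl1 kinase, for 1 h or 18 h. CTRLim was prepared together with the imatinib libraries, so imatinib was compared with CTRLim, and KCl and JTE-607 with CTRL. Between these sets of libraries, library set and treatment cannot be told apart.

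Mitochondrial genes are not transcribed by RNA polymerase II. The single-subunit polymerase POLRMT copies each strand of the circular genome into long polycistronic RNA, from which the tRNAs that separate most genes are cut out, at their 5′ ends by the mitochondrial RNase P complex and at their 3′ ends by ELAC2. Uncut precursor RNA runs past the end of such a gene as a matter of course, and a read ending there does not report on cleavage by CPSF73 or on the position of RNA polymerase II.

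All 8 genes are single exons on the forward strand of chromosome M in GRCh38, with no intron. A read counted as readthrough when its 3′ end lay more than 100 nt beyond the annotated end. The bases around these ends are shown because they decide what is counted. Each run holds the last 15 bases of the gene followed by the next 15 (GRCh38), and capitals mark the part of the stop codon that the DNA encodes, which in 5 of the 8 genes is T or TA and is completed by the poly(A) tail of the mature mRNA.
MT-ND1, chrM:3307-4262: tccccctcaaaccTAagaaatatgtctgat
MT-ND2, chrM:4470-5511: tactaataatcttaTagaaatttaggttaa
MT-CO1, chrM:5904-7445: tacataaaatctAGAcaaaaaaggaaggaa
MT-CO2, chrM:7586-8269: gtatttaccctaTAGcaccccctctacccc
MT-CO3, chrM:9207-9990: attgatgagggtctTactcttttagtataa
MT-ND4, chrM:10760-12137: ccgggttttcctctTgtaaatatagtttaa
MT-ND5, chrM:12337-14148: ctcctaatcacaTAAcctattcccccgagc
MT-CYB, chrM:14747-15887: tactcaaatgggccTgtccttgtagtataa

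The counted region began in a tRNA gene for MT-ND1 (MT-TQ), MT-ND2 (MT-TA), MT-CO1 (MT-TD), MT-ND4 (MT-TS2) and MT-CYB (MT-TP). For MT-CO2 and MT-CO3 it began inside the next mRNA, MT-ATP8 and MT-ND3. MT-ND5 is followed by MT-ND6, which lies on the opposite strand and ends at the adjoining base, so that each of these genes is the counted region of the other. Whether reads were counted by strand is not given in the sources used here, and reads of MT-ND5 and MT-ND6 may therefore not be fully separated. The mature MT-ND5 mRNA also carries a 3′ untranslated region past the annotated end, so mature RNA can pass the boundary as well. The hexamer AATAAA, the poly(A) signal of nuclear genes, was searched on the sense strand in the last 50 bases of each transcript. It was found in 0 of the 8 genes and in 7675 of 12693 transcripts outside the mitochondrial genome (60.5%).

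Over the 18 libraries the 8 genes held 3085 of 447434 readthrough reads, and the 11 mitochondrial genes together 3484. The readthrough reads of a library numbered between 8422 and 57982. The median transcript had 10 reads over all libraries. Of 10 erythroid markers of K562 cells, 9 were in the table and held 7678 reads, whereas 6 of 10 markers of other cells were in the table and held 20, with COL1A2 at 0. The libraries of IM 1h differed from each other by about the sampling noise, as did CTRLim replicates 2 and 3. They are labelled as biological replicates and were kept apart. Summing IM 1h replicates 1 and 2 as 1 library, and CTRLim replicates 2 and 3 as another, left 2 libraries in each of these groups and the same number of the 8 genes called in the 4 comparisons they enter.

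MT-ND5 had 1309 reads over the 18 libraries and ranked 15th of all transcripts. MT-CO1 had 885 and ranked 33rd. The others followed at a distance, with 221 for MT-ND2, 207 for MT-ND1, 195 for MT-CO2, 94 for MT-CYB, 88 for MT-ND4 and 86 for MT-CO3. MT-ND5 held 42.4% and MT-CO1 28.7% of the reads of the 8 genes. Per kilobase of the gene itself, readthrough reads were 722 for MT-ND5, 574 for MT-CO1, 285 for MT-CO2, 217 for MT-ND1, 212 for MT-ND2, 109.7 for MT-CO3, 82.4 for MT-CYB and 63.9 for MT-ND4. Over the 8 genes, which share their libraries, Pearson's r between length and log2 reads was 0.69 and Spearman's rho 0.55. Per kilobase the values were 0.44 and 0.24. MT-ND5 and MT-CO1 were both the longest genes and those with most reads. Among the others reads did not follow length. MT-ND4 (1378 nt) had 88 reads, MT-ND2 (1042 nt) 221, MT-CO3 (784 nt) 86 and MT-CO2 (684 nt) 195.

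**Figure D1:**
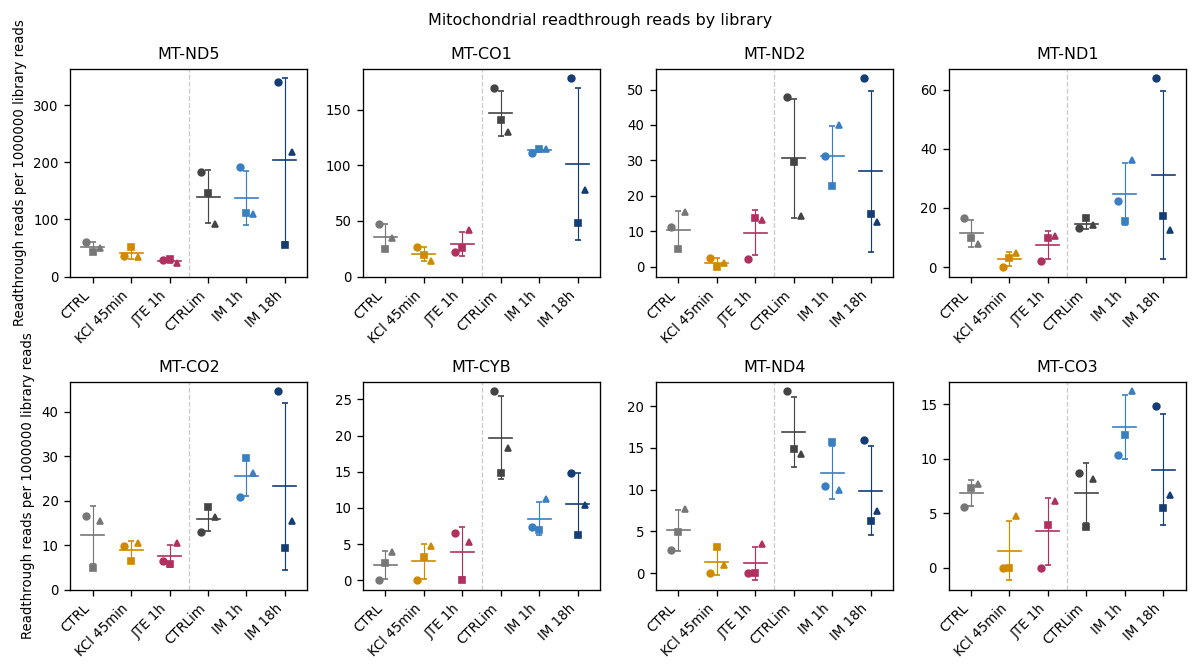
Readthrough reads per 1000000 library reads (RPM, vertical axis, linear) of each of the 8 genes in the 6 groups. Circles, squares and triangles are replicates 1, 2 and 3, horizontal lines are group means, error bars are SD over 3 libraries, and the dashed line separates the library sets; an error bar can run below 0 where a group includes zeros. MT-ND5 reaches 340.4 RPM in IM 18h replicate 1 and 54.8 RPM in replicate 2 of the same group.

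Levels are given as RPM, readthrough reads per 1000000 reads of the library, and are thus relative to the other reads of that library. A level cannot separate more RNA per mitochondrion from more mitochondria in the fraction, or from less of other RNA. The sum of the 8 genes was 160.8, 102.3 and 143.1 RPM in CTRL replicates 1 to 3, 75.5, 86.0 and 74.8 RPM in KCl 45min, and 67.5, 89.5 and 115.0 RPM in JTE 1h. In the imatinib set it was 482.9, 385.1 and 306.7 RPM in CTRLim, 405.6, 329.7 and 363.8 RPM in IM 1h, and 726.6, 162.0 and 361.6 RPM in IM 18h. The 9 libraries of the imatinib set all lay above the 9 of the other set, and the IM 18h libraries spread over a wider range than those of any other group. The sets nearly met, at 162.0 RPM in IM 18h replicate 2 and 160.8 RPM in CTRL replicate 1. As a share of all readthrough reads, the sum was 0.309% to 0.482% in CTRL and 0.797% to 1.09% in CTRLim. On that scale the sets overlapped, since IM 18h replicate 2 had 0.434%.

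The untreated libraries of the imatinib set had more mitochondrial readthrough reads per library read than the untreated libraries of the other set. The paper lists longer readthrough reads for the imatinib-treated libraries than for CTRL, and lists no lengths for CTRLim. How far read length or other differences between the library sets enter here was not tested. The mean sum was 391.6 ± 88.3 RPM in CTRLim and 135.4 ± 29.98 RPM in CTRL (SD, n = 3 each), 2.89-fold apart. MT-CO1, the catalytic core of cytochrome c oxidase, had 169.7, 140.7 and 130.0 RPM in CTRLim and 47.1, 24.4 and 34.8 RPM in CTRL. MT-ND5 had 182.7, 146.3 and 91.4 RPM in CTRLim and 61.0, 43.9 and 50.3 RPM in CTRL. For both genes every CTRLim library lay above every CTRL library.

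Of the 8 genes, 5 had the 30 reads over the 6 libraries that the test required, and 2 were higher in CTRLim at an adjusted p under 0.05, where 10.6% of the 472 transcripts tested were called and 10.2% were called higher. The log2 fold change was 2.04 for MT-CO1 (standard error 0.357, adjusted p = 0.00208) and 1.41 for MT-ND5 (standard error 0.357, adjusted p = 0.0177, edgeR quasi-likelihood test, Benjamini-Hochberg adjusted). MT-ND2 had a log2 fold change of 1.47 and an adjusted p of 0.0956 by the same edgeR test, and was called when CTRL replicate 3 was left out (adjusted p = 0.0361 by the same edgeR test), where 16% of 400 transcripts were called higher. The call of MT-ND5 was lost with DESeq2 (log2 fold change 1.04, adjusted p = 0.112), after TMM scaling (adjusted p = 0.0638) and without CTRLim replicate 1 (0.0663) or 2 (0.0791, same edgeR test). The median log2 fold change was 1.41 over the 5 genes and 0.31 over all transcripts tested.

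MT-CYB had 26.1, 14.8 and 18.3 RPM in CTRLim against 0, 2.44 and 3.87 RPM in CTRL, and MT-ND4 had 21.8, 14.8 and 14.2 RPM against 2.77, 4.87 and 7.73 RPM. Both had 25 reads over the 6 libraries, under the minimum of 30, and their libraries did not overlap. With no minimum of reads the log2 fold change was 3.05 for MT-CYB (adjusted p = 0.0676) and 1.66 for MT-ND4 (adjusted p = 0.580, same edgeR test), and neither was called. MT-ND1 had a mean of 14.6 ± 1.84 RPM in CTRLim and 11.4 ± 4.67 RPM in CTRL, and MT-CO3 of 6.84 ± 2.73 and 6.86 ± 1.16 RPM (SD, n = 3 each), with overlapping libraries. The 95% interval of the log2 fold change of MT-ND1 ran from -0.75 to 1.46 and held the value of MT-ND5. Of the 5 genes tested, 2 had every CTRLim library above every CTRL library, as did 25.8% of all transcripts tested. MT-CO1 made up 35.1% to 42.4% of the reads of the 8 genes in CTRLim and 23.8% to 29.3% in CTRL.

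**Figure D2:**
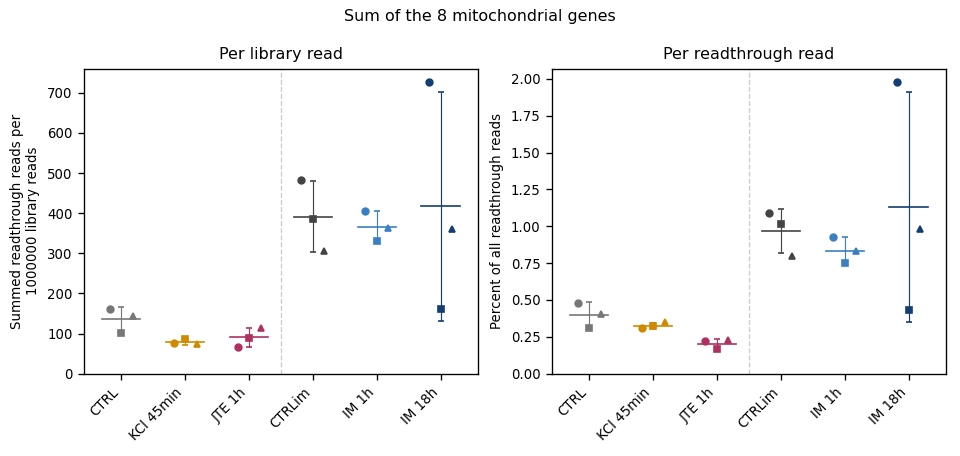
Sum of the 8 genes as readthrough reads per 1000000 library reads (left, vertical axis) and as percent of all readthrough reads of the library (right, vertical axis). Circles, squares and triangles are replicates 1, 2 and 3, lines are means and error bars SD over 3 libraries, and the dashed line separates the library sets. In JTE 1h the 3 libraries overlap those of CTRL per library read (67.5 to 115.0 against 102.3 to 160.8 RPM) and lie below all of them as a share of readthrough reads (0.166% to 0.228% against 0.309% to 0.482%).

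JTE-607 blocks the nuclear cleavage enzyme, which does not act on mitochondrial RNA, so the comparison with CTRL asks how these genes behaved where readthrough of nuclear genes was to be induced. The log2 fold change had a median of -0.53 over the 5 genes tested and of 0.49 over all 969 transcripts tested. It was negative in 4 of the 5 genes and positive in 77.6% of all transcripts. None of the 5 was called at an adjusted p under 0.05 by edgeR's quasi-likelihood test, nor by DESeq2, and 0 had an unadjusted p under 0.05, where 0.103% of all transcripts were called and 11.1% had an unadjusted p under 0.05.

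MT-ND5 had 28.3, 31.1 and 24.4 RPM in JTE 1h, and all 3 libraries lay below the lowest CTRL library, which had 43.9 RPM. Such an order toward lower values was found in 1.86% of all transcripts. The log2 fold change of MT-ND5 was -0.89 (standard error 0.511, 95% interval -1.89 to 0.11, adjusted p = 0.517 by the edgeR quasi-likelihood test, Benjamini-Hochberg adjusted), so it did not pass the test. MT-CO1 had 21.8, 25.3 and 41.8 RPM, a range that overlapped CTRL (log2 fold change -0.22, 95% interval -1.28 to 0.85). The remaining log2 fold changes were -0.53 for MT-ND1, -0.57 for MT-CO2 and 0.01 for MT-ND2, all with overlapping libraries.

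The summed level was 90.6 ± 23.8 RPM in JTE 1h and 135.4 ± 29.98 RPM in CTRL (SD, n = 3 each), a log2 fold of -0.58 within overlapping libraries. Scaled to all readthrough reads the log2 fold was -0.96 and the libraries did not overlap. Total readthrough reads are themselves mostly nuclear, so that scale mixes a change of the mitochondrial reads with one of the nuclear reads. MT-CYB, MT-ND4 and MT-CO3 had between 4 and 9 reads in the JTE 1h libraries together and stayed under the minimum of 30 reads. With no minimum their log2 fold changes were 0.99, -1.38 and -0.75, each with an adjusted p of 0.789 by the same edgeR test.

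In KCl 45min, the sum of the 8 genes was 78.8 ± 6.28 RPM (SD, n = 3) and every library lay below every CTRL library, with a log2 fold of -0.78. Readthrough reads of other transcripts were also fewer per library read, with a median log2 fold change of -0.39 over the 378 transcripts tested, and as a share of all readthrough reads the sum overlapped between the groups, at 0.307% to 0.348% in KCl 45min and 0.309% to 0.482% in CTRL. MT-ND5 and MT-CO1 were the only members of the 8 with enough reads for the test, and 0 of these 2 were called by edgeR's quasi-likelihood test or by DESeq2, with 0 at an unadjusted p under 0.05, where 25.1% of all transcripts were called, 20.9% were called lower and 33.6% had an unadjusted p under 0.05. MT-ND5 had 36.5, 51.0 and 34.1 RPM and MT-CO1 26.8, 19.1 and 14.2 RPM, both overlapping CTRL. The log2 fold changes were -0.38 for MT-ND5 (95% interval -1.33 to 0.57) and -0.87 for MT-CO1 (95% interval -1.89 to 0.15). That of MT-ND5 was 0.05 after TMM scaling, which removes a shift shared by most transcripts.

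Without MT-ND5 the sum of the other 7 genes was 38.2 ± 2.91 RPM in KCl 45min and 83.7 ± 22.1 RPM in CTRL (SD, n = 3 each), a log2 fold of -1.13. MT-ND2 had 1, 0 and 1 reads in the KCl 45min libraries against 4, 2 and 4 in CTRL, and MT-ND1 had 0, 1 and 5 reads against 6, 4 and 2. MT-CO3 had 0, 0 and 5 reads against 2, 3 and 2. Per library read, all KCl 45min libraries were below all CTRL libraries in these 3 genes, which stayed under the minimum of 30 reads. The share of all transcripts with this order is not given here, and 20.9% of those tested were called lower. The 3 orders are therefore not read as particular to these genes. As a share of all readthrough reads the order was kept in MT-ND2 only. KCl 45min replicate 3 had 0.0220% for both MT-ND1 and MT-CO3, against 0.0218% for MT-ND1 in CTRL replicate 3 and 0.0166% for MT-CO3 in CTRL replicate 1. With no minimum of reads their log2 fold changes were -2.87 for MT-ND2 (adjusted p = 0.236), -1.78 for MT-ND1 (0.514) and -1.33 for MT-CO3 (0.626, same edgeR test), and none was called. MT-ND5 made up 45.6% to 59.3% of the reads of the 8 genes in KCl 45min and 35.1% to 42.9% in CTRL.

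**Figure D3:**
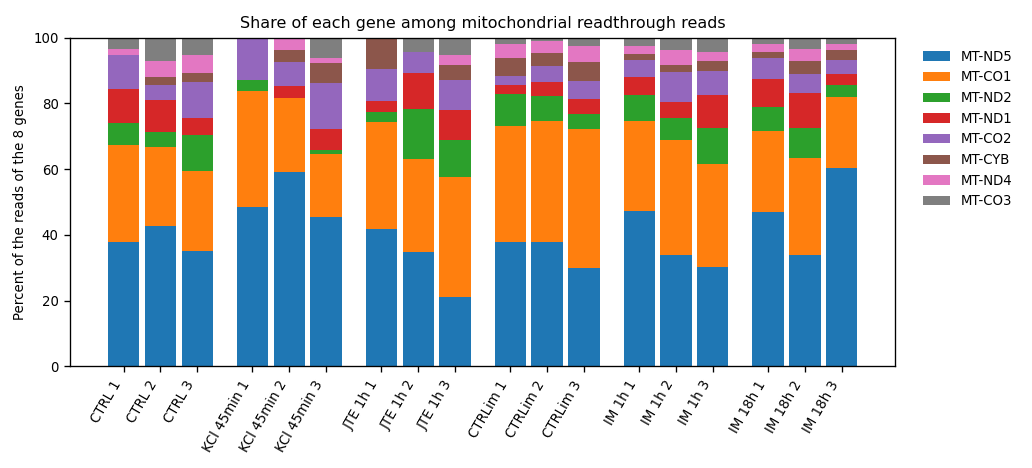
Share of each of the 8 genes among their summed readthrough reads (vertical axis, percent, stacked to 100) in each of the 18 libraries. MT-ND5 and MT-CO1 together hold 57.6% to 83.9% of every bar, and the share of MT-ND5 ranges from 21.2% in JTE 1h replicate 3 to 60.5% in IM 18h replicate 3.

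One hour of imatinib left the mitochondrial sum within the range of its control, at 366.4 ± 38.0 RPM in IM 1h and 391.6 ± 88.3 RPM in CTRLim (SD, n = 3 each, log2 fold -0.10). All 8 genes had enough reads for the test, and 0 were called by edgeR's quasi-likelihood test, where 1.52% of the 988 transcripts tested were called. DESeq2 called 0 as well, but gave no adjusted p for MT-CO3 (unadjusted p = 0.289 by DESeq2). At an unadjusted p under 0.05 there was 1 of the 8, MT-CYB, and 13.3% of all transcripts. The median log2 fold change was 0.14 over the 8 genes and 0.19 over all transcripts.

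MT-CO1 had 111.4, 115.1 and 114.6 RPM in IM 1h, the narrowest spread among the 199 transcripts with at least 60 reads in that group, with a coefficient of variation of 1.76%. These values came from 75, 66 and 92 reads, and counts of this size vary by more than that through sampling alone. All 3 libraries lay below the lowest CTRLim library, which had 130.0 RPM, and the log2 fold change was -0.33 (standard error 0.203, adjusted p = 0.441 by the edgeR quasi-likelihood test, Benjamini-Hochberg adjusted). MT-CYB was also lower in every IM 1h library, at 7.43, 6.98 and 11.2 RPM (log2 fold change -1.04, standard error 0.474, unadjusted p = 0.0279 and adjusted p = 0.290 by the same edgeR test). An order toward lower values of this kind was found in 5.47% of all transcripts. In the opposite direction, MT-CO2 and MT-CO3 were higher in every IM 1h library (log2 fold changes 0.61 and 1.03, adjusted p = 0.455 and 0.428 by the same edgeR test), where 13% of all transcripts were. Per library read, MT-CO1 thus lay below the control and MT-CO2 and MT-CO3, of the same enzyme, above it, none of them past the threshold. As a share of all readthrough reads MT-CO2 overlapped, with 0.0476% in IM 1h replicate 1 and 0.0488% in CTRLim replicate 2. MT-CO3 rested on 2, 2 and 4 reads in CTRLim and 7, 7 and 13 in IM 1h.

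MT-ND5 had 191.7, 111.6 and 109.6 RPM in IM 1h, with replicate 1 above all CTRLim libraries and the other two between them (log2 fold change 0.04, 95% interval -0.36 to 0.44). MT-ND1 and MT-ND2 had log2 fold changes of 0.77 and 0.24, and MT-ND4 of -0.43, all with overlapping libraries. Against CTRL in place of CTRLim, MT-ND2, MT-ND5 and MT-CO1 were called higher in IM 1h, with log2 fold changes of 1.69, 1.41 and 1.69, in a fit that called 19.8% of 881 transcripts higher. These match in direction the difference between the untreated groups, and treatment and library set cannot be told apart there.

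After 18 h of imatinib the 3 libraries spread widely in every one of the 8 genes. MT-ND5 had 340.4, 54.8 and 218.6 RPM in IM 18h replicates 1, 2 and 3, from 320, 70 and 295 reads. MT-CO1 had 178.7, 47.8 and 77.8 RPM, from 168, 61 and 105 reads. MT-ND1 had 63.8, 17.2 and 12.6 RPM and MT-ND2 53.2, 14.9 and 12.6 RPM. In all 8 genes replicate 1 was the highest of the 3, and in 6 of the 8 replicate 2 was the lowest, the exceptions being MT-ND1 and MT-ND2, in which replicate 3 was lower.

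Among the 335 transcripts with at least 60 reads in the IM 18h libraries, the median coefficient of variation over the 3 libraries was 19.3%. MT-ND1 ranked 2nd at 90.8%, MT-ND2 3rd at 84.8%, MT-CO2 4th at 81.2%, MT-ND5 6th at 70.1% and MT-CO1 9th at 67.6%. MT-ATP6 ranked 1st at 99.4% and MT-ND6 8th at 67.9%, so that 7 of the 9 most variable transcripts were mitochondrial, and these 7 were the only mitochondrial genes with enough reads to be ranked. The minimum applied to the summed reads, so 1 high library could carry a gene past it. Replicate 1 held 41 of the 64 reads of MT-ATP6 and 60 of the 99 of MT-ND1. MT-CO3, MT-ND4 and MT-CYB were not ranked, with 30, 33 and 36 reads, and had lower values of 56.9%, 53.6% and 41.1%. The highest library exceeded the lowest 6.21-fold for MT-ND5 and 3.74-fold for MT-CO1. In IM 1h the coefficient of variation of MT-ND5 was 34.0% and ranked 9th of 199, and in CTRLim it was 32.8% and ranked 18th of 95. In IM 18h replicates 1 to 3 all readthrough reads numbered 34547, 47742 and 49827, counts not divided by library reads. As a share of these, the sum of the 8 genes was 1.98%, 0.434% and 0.979%. How far the amount of mitochondria in the chromatin fraction differed between these cultures was not tested.

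Against CTRLim, 0 of the 8 genes were called at IM 18h by edgeR's quasi-likelihood test, where 14.1% of 1386 transcripts were called, and 0 by DESeq2. For MT-CO3, DESeq2 gave no adjusted p (unadjusted p = 0.435 by DESeq2). The unadjusted p by edgeR was under 0.05 in 1 of the 8, MT-ND1, and in 27.2% of all transcripts. The median log2 fold change was 0.14 over the 8 genes and -0.01 over all transcripts, and 0 of the 8 had groups that did not overlap, where 31.7% of all transcripts did. MT-ND1 and MT-ND5 had log2 fold changes of 0.97 (standard error 0.483, adjusted p = 0.183) and 0.58 (standard error 0.321, adjusted p = 0.245), and MT-CO1 had -0.54 (standard error 0.282, adjusted p = 0.213, all by the edgeR quasi-likelihood test, Benjamini-Hochberg adjusted). With the replicate number as a block, MT-CO1 was called lower (log2 fold change -0.74, adjusted p = 0.0367 by the same edgeR test), where 8.95% of all transcripts were. Without IM 18h replicate 1, MT-CO1 was called lower (log2 fold change -1.19), without replicate 2 MT-ND5 was called higher (1.04), and without replicate 3 MT-ND1 was called higher (1.37), so the gene that passed depended on the library left out. In these 3 fits, 11.5% of all transcripts were called lower, 5.46% higher and 6.66% higher, respectively.

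Between the imatinib time points, 1 of the 8 genes was called, MT-ND5, where 18.3% of 1720 transcripts were called and 4.19% were called higher. Its log2 fold change from IM 1h to IM 18h was 0.55 (standard error 0.191, adjusted p = 0.0308 by the edgeR quasi-likelihood test, Benjamini-Hochberg adjusted). The libraries nevertheless overlapped, since IM 18h replicate 2 lay below all 3 IM 1h libraries. The call was lost with the replicate block (log2 fold change 0.43, adjusted p = 0.177), with all 18 libraries in the fit (adjusted p = 0.354 by the same edgeR test) and with DESeq2 (log2 fold change 0.88, adjusted p = 0.673). Without IM 1h replicate 2 or 3 it was lost as well (adjusted p = 0.391 and 0.528 by the same edgeR test), and without IM 18h replicate 1 the log2 fold change of MT-ND5 was -0.0001. In that last fit MT-ND2, MT-CO1 and MT-CO2 were called lower, with log2 fold changes of -1.22, -0.85 and -1.01, where 14.8% of 1440 transcripts were called lower. The median log2 fold change was -0.21 over the 8 genes and -0.30 over all transcripts.

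**Figure D4:**
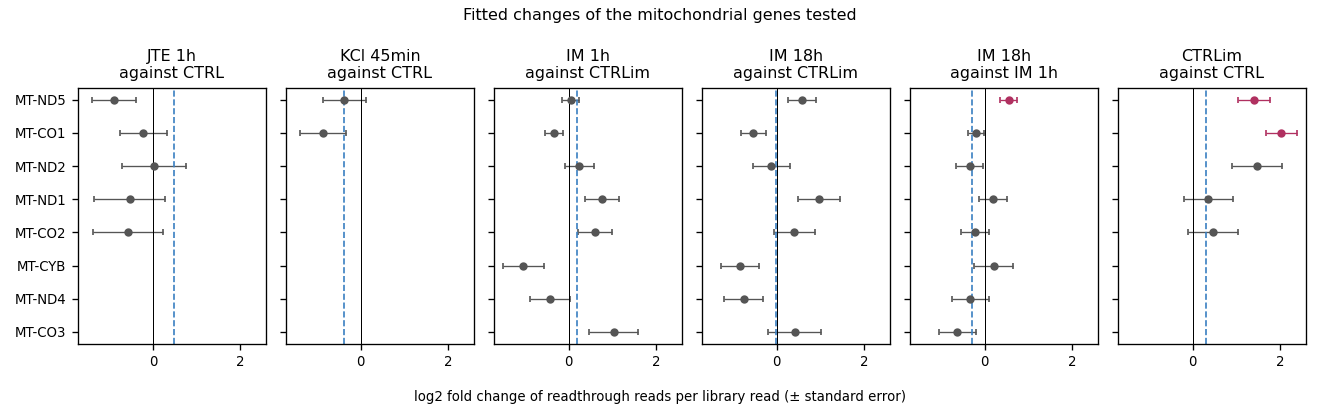
Fitted log2 fold changes (horizontal axis) of the genes tested in each of 6 comparisons, with bars of 1 standard error. Red marks an adjusted p under 0.05 (edgeR), the solid line is 0 and the dashed blue line is the median of all transcripts tested. MT-ND5 and MT-CO1 are red in CTRLim against CTRL (1.41 and 2.04), and MT-ND5 in IM 18h against IM 1h (0.55).

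MT-ND5 and MT-CO1 lie on the same precursor RNA, and their ratio varied between groups and libraries. Reads of MT-ND5 over reads of MT-CO1 were 1.29, 1.80 and 1.44 in CTRL, 1.36, 2.67 and 2.40 in KCl 45min and 1.30, 1.23 and 0.583 in JTE 1h. They were 1.08, 1.04 and 0.703 in CTRLim, 1.72, 0.970 and 0.957 in IM 1h, and 1.90, 1.15 and 2.81 in IM 18h. All IM 18h libraries thus lay above all CTRLim libraries. The share of MT-CO1 in the reads of the 8 genes was 38.0% ± 3.84 in CTRLim, 31.3% ± 3.73 for the 1 h and 25.2% ± 4.01 for the 18 h treatment (SD, n = 3 each), and all IM 18h libraries lay below all CTRLim libraries. These ratios were described and not tested.

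The 8 genes varied together over the 18 libraries, but not all of them did so within each library set. The log2 level of each correlated with that of the other 7 summed with Pearson's r between 0.69 and 0.93 over the 18 libraries, which share their totals and fall into sets of 9. Within the CTRL, KCl and JTE-607 libraries r was 0.22 for MT-ND5 and -0.21 for MT-CYB and between 0.58 and 0.71 for the other 6 genes. Within the imatinib set it lay between 0.49 and 0.73 for all 8. Of the genes outside the 8, MT-ATP6, a subunit of ATP synthase, had an r of 0.58 over the 18 libraries and 0.85 within the imatinib set. MT-ND6, the gene of the opposite strand, had an r of 0.25 over the 18 libraries and 0.43 within the imatinib set. Its levels in CTRL and CTRLim were 22.9 ± 8.91 and 24.8 ± 14.1 RPM (SD, n = 3 each), a log2 fold change of 0.25 (95% interval -0.64 to 1.14). MT-ATP6 had 43.6, 7.05 and 10.4 RPM in IM 18h, with replicate 1 the highest as in the 8 genes. MT-ND3 had 10 reads in all.

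Among 369 nuclear transcripts with at least 180 reads, the median Pearson's r with the summed 8 genes was 0.37 over the 18 libraries. The 5 most alike were CREBZF (0.86), HBE1 (0.85), INSIG1 (0.84), YOD1 (0.84) and TRMT11 (0.82). Within the imatinib set their r was 0.59, -0.00, 0.13, 0.07 and 0.38. HBE1, the embryonic epsilon globin gene, had 69.9 ± 20.4 RPM in CTRL, 259 ± 81.4 in CTRLim, 319.7 ± 10.3 after 1 h and 445 ± 18.0 after 18 h of imatinib (SD, n = 3 each). These genes were chosen for their r over all 18 libraries, so a difference between the library sets that they share with the mitochondrial genes follows from the choice.

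Nuclear genes that act on mitochondrial DNA and RNA are themselves transcribed by RNA polymerase II and had few readthrough reads. Of 10 genes of mitochondrial transcription all 10 were in the table, of 18 genes of mitochondrial RNA processing and decay 17, and of 8 genes of mitochondrial DNA maintenance all 8. Depending on the comparison, 0 to 3 genes of the first list, 1 to 7 of the second and 1 of the third had enough reads for the test. Over the 6 comparisons and 3 lists, 33 tests gave 3 calls, 1 higher and 2 lower, in the comparisons in which 14.1%, 18.3% and 25.1% of all transcripts were called.

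TFB1M, which methylates the small mitochondrial rRNA, had 26, 33 and 24 readthrough reads in IM 18h and 2, 3 and 6 in CTRLim (log2 fold change 1.41, standard error 0.458, adjusted p = 0.0287 by the edgeR quasi-likelihood test, Benjamini-Hochberg adjusted). The 3 IM 18h libraries held more reads in all, and per library read the means were 23.8 ± 5.26 and 8.81 ± 3.32 RPM (SD, n = 3 each). TRMT10C, a subunit of mitochondrial RNase P, had 9, 15 and 7 reads in IM 18h and 18, 14 and 12 in IM 1h, and its log2 fold change was -1.30 (SE 0.374, adjusted p = 0.00757 by the same edgeR test). TBRG4, also called FASTKD4, which stabilizes certain mitochondrial mRNAs, had 1, 5 and 6 reads in KCl 45min and 12, 12 and 10 in CTRL, and its log2 fold change was -2.20 (SE 0.616, adjusted p = 0.00517 by the same edgeR test). Over the alternatives the adjusted p, from edgeR or DESeq2, ranged from 0.0143 to 0.226 for TFB1M, from 0.00316 to 0.364 for TRMT10C and from 0.00249 to 0.102 for TBRG4. TFAM, which packages mitochondrial DNA and activates its promoters, had 65 reads over all libraries, RNASEH1 130 and the helicase gene TWNK 54. TFAM had enough reads for 1 comparison and RNASEH1 for all 6, without a call, and TWNK for none.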

How the data were processed

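The table deposited by the authors holds whole-number counts of readthrough reads for 1 transcript per gene in 18 libraries, neither normalized nor pooled. Per the methods, the authors removed adapters with cutadapt, mapped reads with minimap2 to GRCh38, collapsed duplicates by molecular identifier, removed polyadenylated reads, reads whose name occurred more than once and splicing intermediates, and gave each read to the gene whose last exon it covered most. Removing polyadenylated reads removes tailed mitochondrial mRNA. No nuclear copy of a mitochondrial gene was among the named transcripts of the table. Reads of the gene bodies were not used here.

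Of 13051 transcripts, 12704 matched GENCODE by identifier, and 347 did not. Mitochondrial coordinates and sequences came from the GRCh38 genome. Counts were divided by the reads left in each library after the filters, as the paper lists them, and the same totals were the library sizes in edgeR 4.0.16 (glmQLFit and glmQLFTest, R 4.3.3). Each comparison used its 6 libraries and all transcripts with at least 30 reads over them, with Benjamini-Hochberg adjustment over all of these, and adjusted p under 0.05 was called. A p-value sets the difference between 2 groups against the spread between these cultures, as the fit estimates it. Low counts limit the precision: in CTRL the 8 genes had between 2 and 53 reads over 3 libraries.

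The members and gene lists were chosen with earlier results of these data known. Named were the 8 genes, the other mitochondrial genes in the table, the list genes called in any comparison and the 2 with most reads in each list, and the 5 nuclear transcripts with the highest Pearson's r with the summed genes (log2 RPM, pseudocount 0.5 reads, at least 180 reads in all). The interval of a log2 fold change is 1.96 standard errors either side. Both tools were tested on simulated counts for IM 18h against CTRLim: of 171 tested genes that differed by 2 on the log2 scale, edgeR called 158 (92.4%) and 9 of 1095 unchanged genes, and DESeq2 1.42.0 called 114 (66.7%) and 0. The largest fitted change of the 8 genes in this comparison was 0.97, for MT-ND1. The simulation therefore does not tell how often changes of their size and spread would be called. Python 3.11.15 with pandas 2.3.3 was used for the rest.

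The series' design text gives the numbers 1, 2 and 3 to repeats of the experiment whose groups were harvested in parallel, so the numbers were taken to pair libraries within a set. Over 375 transcripts, deviations of same-numbered libraries from their group means correlated with r of 0.35, 0.01 and 0.35 for JTE 1h and CTRL, 0.29, 0.05 and 0.11 for KCl 45min and CTRL, 0.08, -0.01 and 0.00 for IM 1h and CTRLim, and 0.13, 0.05 and 0.14 for IM 18h and CTRLim. Differently numbered libraries had r between -0.41 and 0.26 for JTE 1h and CTRL and between -0.26 and 0.18 for KCl 45min and CTRL. Their r lay between -0.07 and 0.06 for IM 1h and CTRLim and between -0.14 and 0.05 for IM 18h and CTRLim. The data thus show the pairing weakly, or not at all for IM 1h and CTRLim. The fit without a block is the main one, and the calls that the block changed are given.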

Additional observations from a re-analysis of the deposited data

How the results depend on the processing

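Low numbers of reads limit these results, with between 2 and 8 of the 8 genes tested in a comparison, and so does the spread between the IM 18h libraries. For single genes, 413 of 479 alternative values kept direction and side of the threshold, 46 turned direction, 13 passed the threshold only in the alternative (2 of them with the direction turned) and 10 lost it (1 of them with the direction turned). Causes were not tested, except that leaving out a library leaves fewer samples and another control moves the library set. Summing the libraries that differed by about the sampling noise, chosen after seeing the data, turned 1 value, MT-ND5 at IM 1h against CTRLim (-0.072 on the log2 scale).

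The number of the 8 genes called was 1 with the replicate block and 2 with CTRL as the control for IM 18h against CTRLim, and 3 with CTRL as the control for IM 1h. Between the imatinib time points it was 0 with DESeq2, 0 with all 18 libraries and 0 with the replicate block, and for CTRLim against CTRL it was 1 after TMM scaling and 1 with DESeq2. The block changed no other call. Leaving out 1 library gave 0 to 1 for IM 18h against CTRLim, 0 to 3 between the time points and 1 to 3 for CTRLim against CTRL. Scaled to all readthrough reads, the log2 fold of the sum was -0.96 in JTE 1h and -0.29 in KCl 45min. Per library read, with CTRL as the control, the log2 fold of the sum was 1.44 in IM 1h and 1.62 in IM 18h.

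Values that turned direction were log2 fold changes, most of them small. With TMM scaling they were -0.45 for MT-ND2 in JTE 1h, 0.0524 for MT-ND5 in KCl 45min, -0.13 for MT-ND5 in IM 1h, 0.0051 for MT-ND2 in IM 18h against CTRLim, 0.0928 for MT-CO1 and 0.0737 for MT-CO2 between the time points, and -0.0254 for MT-ND1 in CTRLim. With total readthrough reads they were -0.41, 0.11 and -0.10 for the first 3 of these, and 0.0431 for MT-CO1 and 0.0235 for MT-CO2 between the time points. With DESeq2 they were -0.52, 0.0143, -0.13 and 0.0721 for the first 4, and 0.0712 for MT-ND2, 0.14 for MT-CO1, 0.14 for MT-CO2 and 0.0042 for MT-ND4 between the time points. The replicate block gave -0.14 for MT-ND2 in JTE 1h and -0.0291 for MT-ND5 in IM 1h, and all 18 libraries gave -0.0005 for the latter. With CTRL as the control they were 1.69 for MT-CO1 in IM 1h, and 1.37 for MT-ND2, 1.51 for MT-CO1, 0.93 for MT-ND4 and 2.30 for MT-CYB in IM 18h.

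Leaving out 1 library, log2 fold changes that turned direction ranged in JTE 1h from -0.37 to 0.42 for MT-ND2 and -0.58 to 0.0522 for MT-CO1, and in IM 1h from -0.14 to 0.53 for MT-ND2 and -0.28 to 0.19 for MT-ND5. In IM 18h against CTRLim they ranged from -0.0167 to 1.37 for MT-ND1, -0.99 to 0.24 for MT-ND2 and -0.40 to 0.81 for MT-CO2. Between the time points they ranged from -0.78 to 0.61 for MT-ND1, -1.22 to 0.0145 for MT-ND2, -0.85 to 0.13 for MT-CO1, -1.01 to 0.17 for MT-CO2, -0.0001 to 1.01 for MT-ND5 and -0.0673 to 0.49 for MT-CYB.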
